A study of Mus musculus with 8 samples.

Results

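The aminoacyl-tRNA synthetases described here are 36 mouse genes, 20 for enzymes of the cytosol and 16 for enzymes of mitochondria, whose symbols end in 2. They were taken from a list of gene symbols, which was chosen with earlier results of these data known. Their probes were found by matching the RefSeq transcript of each array probe to those symbols, without use of measured values. Current symbols matched 35 of the 36 genes, and Mars was matched as an older symbol of Mars1. The 36 genes have 44 of the 55681 probes on the array. Of the 36, 33 (19 cytosolic, 14 mitochondrial) were well above background in at least 4 of 8 livers and were tested among 17531 genes or transcripts, of which 11852 have a symbol. Yars, Mars2 and Nars2 were well above background in 0 of 8 livers and have no fold change.

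An aminoacyl-tRNA synthetase joins an amino acid to its tRNA, the charged form that the ribosome uses. Mammalian cells make separate nuclear-encoded sets for the cytosol and for mitochondria, and several cytosolic enzymes sit in a multisynthetase complex held together by scaffold proteins. In the liver the cytosolic set serves, among much else, the synthesis of plasma proteins, and the mitochondrial set serves the few respiratory-chain proteins encoded in mitochondrial DNA. Pus1, the gene mutated in these mice, encodes a pseudouridine synthase that modifies tRNAs in both compartments. In humans, mutations in PUS1 and in YARS2, the mitochondrial tyrosyl-tRNA synthetase, each cause a syndrome of myopathy, lactic acidosis and sideroblastic anaemia.

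Frozen liver from 4 homozygous mutant Pus1 mice (2 males, 2 females) was set against liver from 4 wild-type mice (2 males, 2 females). All 8 animals were 14 to 16 weeks of age, of strain C57BL/6J with 5 backcross generations. The labels do not describe the mutant allele. Each of 4 2-colour Agilent arrays carried a mutant and a wild-type liver of 1 sex, females on arrays 1 and 2 and males on arrays 3 and 4, and the number of a liver is that of its array. The mutant carried Cy5 on arrays 1 and 3 and Cy3 on arrays 2 and 4.

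Pus1 itself read 6.32 to 6.81 in mutants and 8.45 to 8.92 in wild types on the scale of normalized log2 intensity used throughout, with no overlap between the genotypes. All 12 hepatocyte markers were well above background in all 8 livers, and the sex-linked transcripts went with the labelled sexes. Well above background were 36.8% to 37.9% of spots in males and 42.2% to 44.0% in females. Wild-type female 2 stood apart, with 6.77% of genes more than 1 log2 unit from the mean of the other livers of its sex, against 0.314% to 1.76% in the other 7 livers. Its array, array 2, had the widest spread of ratios, with an interquartile range of 0.63 over all genes against 0.30 to 0.35 on the other arrays. Array 2 gave the largest ratio in size for 18 of the 33 synthetases, close to its share of all genes (51.7%). For this reason the genotype ratios of the 33 synthetases, each from its brighter probe, were also fitted without array 2. That value is given wherever leaving the array out turned the sign of the ratio or moved it by over 1.5 times. No such value is given for second probes or for single genes outside the 33, so their ratios may depend on array 2. The fit without array 2 leaves array 4 alone in its dye orientation. There array 4 weighs as much as arrays 1 and 3 together. A change in that fit can therefore come from the added weight of array 4 as well as from the loss of array 2. In whole liver, fewer cells of a type and less RNA per cell cannot be told apart. The number of arrays limits the precision, and probe levels are compared between livers only, not between genes.

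The first comparison was between mutant and wild-type livers. No synthetase passed the test for genotype (limma on ratios with a dye coefficient, Benjamini-Hochberg adjustment, threshold 0.05). The same fit called 0 of all 17531 genes (0%), with 1562 (8.91%) at an unadjusted p under 0.05. The cytosolic genes had fitted log2 ratios of mutant over wild type with a median of 0.11, above 0 for 15 of 19. The mitochondrial genes had a median of 0.07, above 0 for 10 of 14. Over all genes tested the median ratio was -0.01 and 46.9% were above 0. Without array 2 the cytosolic median was 0.044 and the mitochondrial median 0.074, and the counts above 0 were 13 of 19 cytosolic and 11 of 14 mitochondrial genes, against 47.6% of all genes. The ratios of the 33 synthetases ran between -0.28 and 0.44, with standard errors of 0.099 to 0.29 and adjusted p-values of 0.541 to 0.985. The 95% interval of the ratio lay within 1.5-fold in either direction for 27 of the 33 and within 2-fold for all 33. Over the 33 genes the lowest limit was -0.59 and the highest 0.94. A p that missed the threshold therefore leaves room for changes within the interval of each gene. These intervals are not adjusted for the number of genes, and those of Farsb (0.013 to 0.87) and Pars2 (0.0003 to 0.68) lay above 0.

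**Figure D1:**
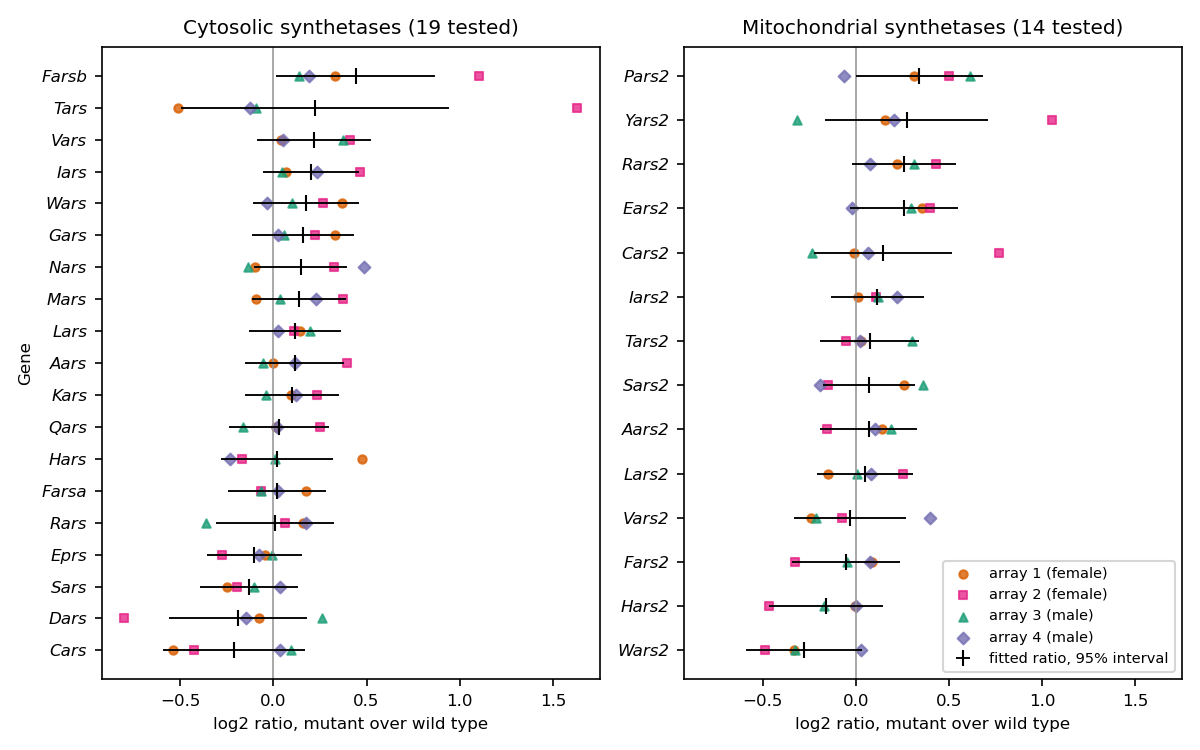
Log2 ratio of mutant over wild type (x axis) for each tested cytosolic (left) and mitochondrial (right) synthetase, with 1 symbol per array and a black tick and bar for the fitted ratio and its 95% interval. Most fitted ratios lie right of 0 (15 of 19 cytosolic, 10 of 14 mitochondrial), and array 2 lies farthest from 0 for 18 of the 33 genes.

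Among the cytosolic enzymes, the 5 genes with the smallest genotype p were Farsb, Iars, Vars, Wars and Nars, and each had a positive fitted ratio. Farsb, the beta subunit of phenylalanyl-tRNA synthetase, read 10.10, 10.21, 9.16 and 9.22 in mutants 1 to 4, against 9.77, 9.11, 9.03 and 9.03 in wild types 1 to 4. Both mutant females were above all 4 wild types, and the male values lay close together. Its ratios were 0.33, 1.11, 0.14 and 0.19 on arrays 1 to 4, all above 0. The fitted ratio was 0.44 ± 0.17 (SE, n = 4 arrays, 1.36-fold, adjusted p = 0.541 in limma, unadjusted p = 0.0453). Without array 2 it was 0.21 ± 0.13 (adjusted p = 1 in limma). Farsa, the alpha subunit that carries the catalytic site of the same enzyme, had a fitted ratio of 0.02 ± 0.11 with its brighter probe, and of 0.04 ± 0.13 without array 2.

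Iars, the isoleucyl-tRNA synthetase, read 10.25, 10.10, 9.63 and 9.83 in mutants 1 to 4, against 10.18, 9.64, 9.59 and 9.60 in wild types 1 to 4. Wild type 1 was near the mutant females, so the genotypes overlap. The fitted ratio was 0.20 ± 0.10 (SE, n = 4 arrays, adjusted p = 0.549 in limma), with a positive ratio on all 4 arrays. Vars, the valyl-tRNA synthetase, read 8.76, 8.99, 9.04 and 8.75 in mutants 1 to 4, against 8.72, 8.59, 8.66 and 8.70 in wild types 1 to 4. It was the only synthetase in which all 4 mutants lay above all 4 wild types, a pattern seen in 1.34% of all genes, and in 0 of the 33 did all mutants lie below all wild types (0.851%). Its means were 8.89 ± 0.15 in mutants and 8.67 ± 0.06 in wild types (SD, n = 4 each), with a fitted ratio of 0.22 ± 0.12 (SE, adjusted p = 0.561 in limma). On arrays 1 and 4 the ratios of Vars were only 0.04 and 0.05, against 0.41 and 0.37 on arrays 2 and 3, and the fitted ratio was 0.13 ± 0.13 without array 2.

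Wars, the tryptophanyl-tRNA synthetase and a known interferon-induced gene, read 11.79, 11.75, 11.44 and 11.41 in mutants 1 to 4, against 11.42, 11.49, 11.34 and 11.44 in wild types 1 to 4. Only the mutant females stood above the wild types. Its ratios were 0.37, 0.26, 0.10 and -0.04 on arrays 1 to 4, with a fitted ratio of 0.18 ± 0.11 (SE, adjusted p = 0.602 in limma), and of 0.10 ± 0.13 without array 2. The second, dimmer probe of Wars had ratios of 0.68, 0.54, 0.39 and 0.11 on the same arrays, with a fitted ratio of 0.43 ± 0.12 (SE, unadjusted p = 0.0149, adjusted p = 0.539 in limma over all probes). That probe was well above background in 6 of 8 livers, and not in those of array 4, so it read near the floor. Beside these, the 25 measured genes of an interferon response list all had fitted ratios above 0, and their array medians were 0.69, 1.58, 0.28 and -0.06. The part of the interferon genes in the values of Wars was not tested. Nars, the asparaginyl-tRNA synthetase, read 10.25, 10.65, 10.31 and 10.86 in mutants 1 to 4, against 10.34, 10.32, 10.45 and 10.37 in wild types 1 to 4. Mutants 2 and 4 were the highest, and both were labelled with Cy3. The ratio was -0.10 and -0.13 with the mutant in Cy5 (arrays 1 and 3), against 0.33 and 0.49 with the mutant in Cy3 (arrays 2 and 4). The fitted ratio of Nars, which allows for dye, was 0.15 ± 0.10 (SE, adjusted p = 0.614 in limma).

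Tars, the threonyl-tRNA synthetase, had the widest spread of the 33. It read 12.98, 13.38, 11.91 and 12.24 in mutants 1 to 4, against 13.49, 11.75, 12.00 and 12.36 in wild types 1 to 4. The ratio was 1.63 on array 2 and -0.51, -0.09 and -0.12 on arrays 1, 3 and 4, so that the fitted ratio of 0.23 ± 0.29 (SE, adjusted p = 0.782 in limma) rests on array 2. Without array 2 the ratio of Tars was -0.21 ± 0.14 (adjusted p = 1 in limma). Without array 4, the fit called 1513 of all genes (8.63%), and Farsb (0.67 ± 0.13, adjusted p = 0.0301 in limma) and Tars (0.66 ± 0.14, adjusted p = 0.0403 in limma) were among them. That fit leaves array 2 alone in its dye orientation.

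Cars, Dars, Eprs and Sars were the 4 cytosolic genes with a fitted ratio under 0. Cars, the cysteinyl-tRNA synthetase, read 10.89, 10.93, 11.25 and 11.49 in mutants 1 to 4, against 11.42, 11.36, 11.16 and 11.45 in wild types 1 to 4. Its ratio was below 0 on both female arrays (-0.54 and -0.43) and near 0 on both male arrays (0.09 and 0.03). Dars, the aspartyl-tRNA synthetase of the complex, read 9.15, 8.88, 9.89 and 9.54 in mutants 1 to 4, against 9.23, 9.68, 9.63 and 9.69 in wild types 1 to 4. The lowest value was mutant 2 and the highest mutant 3, so the mutants enclosed the wild types. Eprs, a single protein that charges both glutamyl- and prolyl-tRNA in the cytosol, was the only synthetase with a ratio below 0 on all 4 arrays (-0.04, -0.28, -0.01 and -0.08), a pattern seen in 8.71% of all genes. Without array 2 these 4 ratios stayed below 0 but lay nearer to it, at -0.09 ± 0.16 for Cars, -0.03 ± 0.14 for Dars, -0.05 ± 0.12 for Eprs and -0.07 ± 0.12 for Sars, against -0.21, -0.19, -0.10 and -0.13 with all 4 arrays.

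Gars and Kars each encode both the cytosolic and the mitochondrial enzyme for their amino acid, by alternative start sites or transcripts. Gars, the glycyl-tRNA synthetase, read 13.05, 13.08, 12.78 and 12.58 in mutants 1 to 4, against 12.71, 12.85, 12.73 and 12.56 in wild types 1 to 4. Both mutant females were the highest, and the males of the genotypes lay together. The fitted ratio of Gars was 0.16 ± 0.11 (SE, adjusted p = 0.615 in limma). Kars, the lysyl-tRNA synthetase, read 12.18, 12.35, 12.28 and 12.31 in mutants 1 to 4, against 12.09, 12.12, 12.32 and 12.19 in wild types 1 to 4. The genotypes overlapped, and the fitted ratio of Kars was 0.10 ± 0.10 (SE, adjusted p = 0.710 in limma).

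Farsb, Gars, Iars, Lars and Vars had a positive ratio on all 4 arrays, 5 of 19 cytosolic genes, against 8.98% of all genes. The 8 enzymes of the multisynthetase complex had 6 ratios above 0 with a median of 0.07, and the 11 tested cytosolic enzymes outside it had 9 above 0 with a median of 0.15. None of the complex enzymes passed the test, and their difference from the others was not tested. Of the scaffold genes, Eef1e1 had a ratio of 0.34 ± 0.14, Aimp1 of -0.14 ± 0.11 and Aimp2 of 0.01 ± 0.12 (SE, n = 4 arrays). Rars, the arginyl-tRNA synthetase of the complex, was well above background in only 3 of the mutants and 2 of the wild types. The other 32 genes were so in all 8 livers with their brighter probe. The ratio of Rars was 0.01 ± 0.13 (SE), and 0.04 ± 0.15 without array 2.

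The remaining cytosolic genes had fitted ratios of 0.01 to 0.14. Lars, the leucyl-tRNA synthetase, which also senses leucine for the mTORC1 pathway, had the narrowest spread of the cytosolic genes, with ratios of 0.14, 0.11, 0.20 and 0.02 on arrays 1 to 4. It read 10.97, 11.03, 10.80 and 10.78 in mutants 1 to 4, against 10.83, 10.92, 10.61 and 10.76 in wild types 1 to 4. The mutant was the higher liver of each array, but the sexes differed as much, so the genotypes overlap. Its fitted ratio was 0.12 ± 0.10 (SE, adjusted p = 0.662 in limma). Aars, the alanyl-tRNA synthetase, had a ratio of 0.40 on array 2 and of 0.00, -0.06 and 0.12 on arrays 1, 3 and 4, and its fitted ratio was 0.04 ± 0.12 without array 2, against 0.11 with all 4. Hars, the histidyl-tRNA synthetase, had its highest ratio on array 1 (0.47) and ratios of -0.17, 0.01 and -0.23 on arrays 2, 3 and 4. Its fitted ratio was 0.02 with all 4 arrays and 0.0039 without array 2. Mars, the methionyl-tRNA synthetase, had a fitted ratio of 0.14 ± 0.10, and Qars, the glutaminyl-tRNA synthetase, of 0.03 ± 0.11 (SE, n = 4 arrays). Without array 2 the ratio of Qars turned to -0.03 ± 0.13. Yars, the tyrosyl-tRNA synthetase, gave signals of 6.57 to 6.97 that were not well above background in any liver.

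A set of cytosolic synthetase genes is known to be transcribed in response to amino acid shortage through the factor ATF4, which binds C/EBP-ATF response elements. The core of that element, written here as TGATGNAA on either strand, was looked for from 250 bases before to 50 bases after each gene's start in RefSeq promoter sequences of the build GRCm38.p6. A window was given for 27 of the 36 genes. The core was in 5 of 13 cytosolic windows (38.5%; Aars, Gars, Iars, Tars and Yars), in 0 of 15 mitochondrial windows, and in 3.97% of 32851 windows of all genes. A palindromic site of the factor NRF1, matched exactly, was in 0 of the 28 synthetase windows and in 0.971% of all windows. These motifs were chosen after the ratios had been seen. The 4 measured genes with the core are printed here to show where the core lies, in capitals:
Aars (GRCm38.p6, chr8:111033592-111033891, plus strand): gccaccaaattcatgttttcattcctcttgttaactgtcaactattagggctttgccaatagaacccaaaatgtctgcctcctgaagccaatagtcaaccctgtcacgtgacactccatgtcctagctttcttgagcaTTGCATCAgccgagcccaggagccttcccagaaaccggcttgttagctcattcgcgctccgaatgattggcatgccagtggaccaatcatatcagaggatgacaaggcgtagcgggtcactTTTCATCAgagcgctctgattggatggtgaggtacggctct
Gars (GRCm38.p6, chr6:55037751-55038050, plus strand): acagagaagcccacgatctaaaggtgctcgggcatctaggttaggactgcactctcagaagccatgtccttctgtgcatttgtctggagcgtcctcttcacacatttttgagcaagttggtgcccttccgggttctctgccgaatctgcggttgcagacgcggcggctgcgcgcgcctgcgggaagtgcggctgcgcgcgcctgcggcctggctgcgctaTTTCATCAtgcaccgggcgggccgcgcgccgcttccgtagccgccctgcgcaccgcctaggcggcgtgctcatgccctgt
Iars (GRCm38.p6, chr13:49681880-49682179, plus strand): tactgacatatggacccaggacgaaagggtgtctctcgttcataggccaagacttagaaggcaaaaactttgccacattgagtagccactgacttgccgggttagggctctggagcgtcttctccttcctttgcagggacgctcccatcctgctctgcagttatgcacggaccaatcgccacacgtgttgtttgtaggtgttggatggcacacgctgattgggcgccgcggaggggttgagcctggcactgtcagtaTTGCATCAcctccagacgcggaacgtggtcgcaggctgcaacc
Tars (GRCm38.p6, chr15:11399609-11399908, minus strand): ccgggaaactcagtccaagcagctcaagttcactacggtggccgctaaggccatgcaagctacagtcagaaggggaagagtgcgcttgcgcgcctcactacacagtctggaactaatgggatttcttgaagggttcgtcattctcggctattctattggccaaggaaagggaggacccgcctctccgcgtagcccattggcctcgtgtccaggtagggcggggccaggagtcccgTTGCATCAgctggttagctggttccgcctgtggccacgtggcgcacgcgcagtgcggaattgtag
The fitted ratios of these 4 genes ran between 0.11 and 0.23 with a median of 0.18, against a median of 0.02 and 5 of 8 above 0 in the cytosolic genes with a window and no core. Their array medians were 0.03, 0.43, -0.01 and 0.07, so the value comes mostly from array 2. Without that array 3 of the 4 were above 0, Tars being the exception, with a median of 0.08. A listed set of 21 measured ATF4 and amino acid response genes had 12 ratios above 0, a median of 0.10, and array medians of -0.14, 0.22, 0.09 and -0.07. Within that list Psph, an enzyme of serine synthesis, had a ratio of 0.39 ± 0.11, and Chac1, a glutathione-degrading enzyme, a ratio of -0.90 ± 0.35 (SE, adjusted p = 0.541 in limma for each).

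Among the mitochondrial enzymes, the 5 genes with the smallest genotype p were Pars2, Rars2, Wars2, Ears2 and Yars2. Pars2, the prolyl-tRNA synthetase, read 8.87, 8.90, 8.72 and 8.64 in mutants 1 to 4, against 8.55, 8.40, 8.11 and 8.70 in wild types 1 to 4. Wild type 4 lay within the range of the mutants, and the other 3 wild types were below all of them. Its fitted ratio was 0.34 ± 0.14 (SE, n = 4 arrays, 1.27-fold, adjusted p = 0.541 in limma, unadjusted p = 0.0498). Without array 2, and with more weight on array 4, it was 0.20 ± 0.13. On array 4 the ratio of Pars2 was -0.06, against 0.31 and 0.61 on arrays 1 and 3. With the brighter probe of each gene, Pars2 and Farsb were the only synthetases with an unadjusted p under 0.05, both higher in mutants, as were 4.73% of all genes, and 0 of the 33 were lower at that p (4.18% of all genes). Rars2, the arginyl-tRNA synthetase, read 10.14, 9.67, 9.36 and 9.20 in mutants 1 to 4, against 9.92, 9.24, 9.05 and 9.12 in wild types 1 to 4. Its ratio was positive on all 4 arrays (0.22, 0.43, 0.31 and 0.08), with a fitted ratio of 0.26 ± 0.11 (SE, adjusted p = 0.541 in limma), and of 0.17 ± 0.12 without array 2.

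Wars2, the tryptophanyl-tRNA synthetase, had the lowest ratio of the 33. It read 7.21, 7.56, 7.60 and 7.93 in mutants 1 to 4, against 7.54, 8.04, 7.93 and 7.90 in wild types 1 to 4. Its ratio was below 0 on arrays 1, 2 and 3 (-0.33, -0.49 and -0.33) and 0.03 on array 4. The fitted ratio was -0.28 ± 0.12 (SE, adjusted p = 0.541 in limma). Without array 2 it was -0.15 ± 0.12, in a fit that gives array 4 as much weight as arrays 1 and 3 together. Ears2, the glutamyl-tRNA synthetase, which in mitochondria also loads glutamate onto the glutamine tRNA, read 8.90, 8.94, 8.27 and 7.93 in mutants 1 to 4, against 8.54, 8.54, 7.98 and 7.95 in wild types 1 to 4. The mutant was higher on arrays 1, 2 and 3 and level with the wild type on array 4. Its fitted ratio was 0.26 ± 0.12 (SE, adjusted p = 0.541 in limma), and 0.15 ± 0.12 without array 2, again with the added weight of array 4. Of the amidotransferase that completes that glutamine route, Qrsl1, Gatc and Gatb had ratios of 0.31 ± 0.18, 0.15 ± 0.13 and -0.20 ± 0.10 (SE, n = 4 arrays).

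Yars2, the tyrosyl-tRNA synthetase, read 9.27, 9.56, 8.12 and 8.33 in mutants 1 to 4, against 9.11, 8.51, 8.44 and 8.13 in wild types 1 to 4. Mutant 2 and wild type 2 were far apart, and the ratios were 0.15, 1.05, -0.32 and 0.21 on arrays 1 to 4. The fitted ratio was 0.27 ± 0.18 (SE, adjusted p = 0.594 in limma), and without array 2 it was 0.06 ± 0.15. Iars2, the isoleucyl-tRNA synthetase, read 8.67, 8.85, 8.35 and 8.50 in mutants 1 to 4, against 8.66, 8.74, 8.23 and 8.28 in wild types 1 to 4. Iars2 and Rars2 were the 2 of 14 mitochondrial genes with a positive ratio on all 4 arrays.

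The remaining mitochondrial genes had fitted ratios of -0.16 to 0.15. Hars2, the histidyl-tRNA synthetase, read 10.24, 10.25, 9.70 and 9.95 in mutants 1 to 4, against 10.25, 10.72, 9.87 and 9.95 in wild types 1 to 4. Only arrays 2 and 3 set the genotypes apart, with ratios of -0.47 and -0.17, and the fitted ratio was -0.16 ± 0.12 (SE, adjusted p = 0.640 in limma), and -0.04 ± 0.13 without array 2. Lars2, the leucyl-tRNA synthetase, had a fitted ratio of 0.05 ± 0.10, Aars2, the alanyl-tRNA synthetase, of 0.07 ± 0.11, and Sars2, the seryl-tRNA synthetase, of 0.07 ± 0.10 (SE, n = 4 arrays). Without array 2 the ratio was 0.01 ± 0.12 for Lars2 and 0.13 ± 0.12 for Aars2. For Sars2 the ratios were 0.26 and 0.36 with the mutant in Cy5, against -0.15 and -0.19 with the mutant in Cy3, so that their sign went with the dye. Fars2, the single-chain phenylalanyl-tRNA synthetase, had a fitted ratio of -0.05 ± 0.12, and Tars2, the threonyl-tRNA synthetase, of 0.08 ± 0.11 with its brighter probe. Without array 2 the ratio of Fars2 turned to 0.05 ± 0.12.

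For 6 synthetases a second probe also passed the filter of at least 4 of 8 livers well above background. The second probes of Farsa and Wars were so in only 6 livers and that of Vars2 in only 5. In Cars2, Iars2 and Vars2 the fitted ratios of the probes differed in sign. The brighter probe of Cars2, the cysteinyl-tRNA synthetase, read 9.005, 9.317, 8.430 and 8.243 in mutants 1 to 4, against 9.012, 8.548, 8.667 and 8.177 in wild types 1 to 4. On array 2 this probe gave a ratio of 0.77 and the other probe -0.70, while on arrays 1, 3 and 4 they gave -0.01, -0.24 and 0.07 against 0.03, 0.06 and 0.06. The gene thus has no settled direction on that array, and the fitted ratio of the brighter probe was -0.03 ± 0.13 without array 2, against 0.15 with all 4. Vars2, the valyl-tRNA synthetase, read 7.68, 7.91, 7.85 and 8.08 in mutants 1 to 4, against 7.92, 7.98, 8.07 and 7.68 in wild types 1 to 4 with its brighter probe. Its fitted ratio was -0.03 ± 0.12 with that probe and 0.13 ± 0.14 with the other, and without array 2 the brighter probe gave 0.09 ± 0.12. For Iars2 the values were 0.12 ± 0.10 and -0.01 ± 0.11. Wars, Farsa and Tars2 had positive fitted ratios with both probes, and the second probe gave the higher value in each (0.43, 0.28 and 0.51, against 0.18, 0.02 and 0.08). For Tars2 the second probe had an unadjusted p of 0.0316 (0.51 ± 0.18, SE, adjusted p = 0.539 in limma over all probes). The ratios of that probe were 0.17, 1.27, 0.34 and 0.26 on arrays 1 to 4. Array 2 thus gave by far the largest, and there the brighter probe gave -0.05. Which transcripts each probe detects was not tested.

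**Figure D2:**
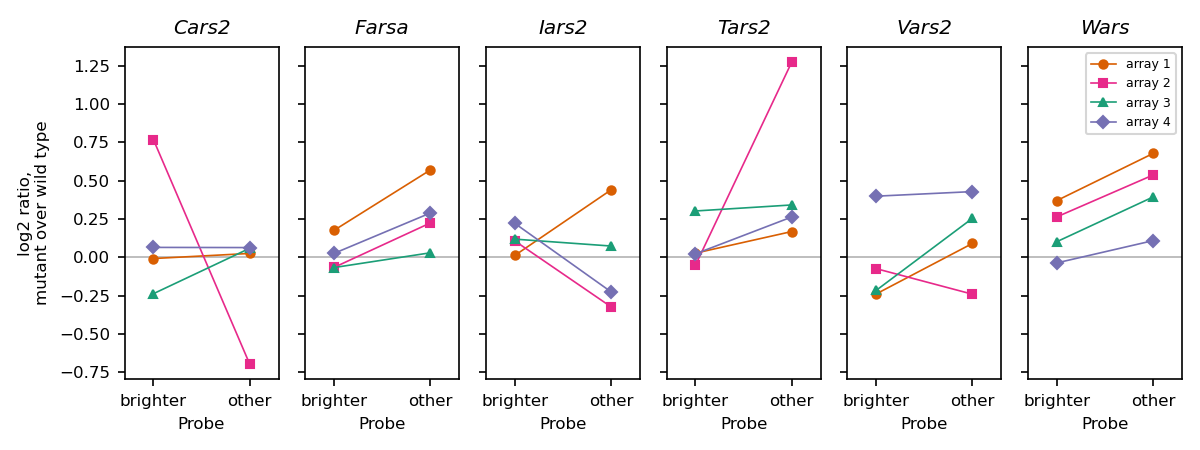
Log2 ratio of mutant over wild type (y axis) on each array for the brighter and the other probe (x axis) of the 6 synthetases with 2 probes that passed the background filter. Lines join the probes of 1 array. In Cars2 array 2 lies at 0.77 with the brighter probe and at -0.70 with the other, and in Wars the other probe is higher on every array.

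The mitochondrial and the cytosolic set were then compared on each array. The median ratio of the mitochondrial genes was 0.058, 0.028, 0.064 and 0.070 on arrays 1 to 4, and that of the cytosolic genes 0.042, 0.23, 0.0082 and 0.033. The mitochondrial set was above the cytosolic set on arrays 1, 3 and 4, by 0.016, 0.056 and 0.037, and below it on array 2, by a difference of -0.20. The mean difference over the arrays was -0.024 with a standard deviation of 0.12, so that the sets differed by less than the spread between arrays. From the fitted ratios the medians differed by -0.042, and without array 2 by 0.030.

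Within pairs of genes for the same amino acid, 13 of 16 could be measured. The mitochondrial gene had the higher ratio in 5 pairs and the lower in 8, with a median difference of -0.07. Without array 2 the tally turned round, with the mitochondrial gene higher in 8 pairs and lower in 5 and a median difference of 0.07, while without array 1, 3 or 4 it stayed at 5 and 8. The differences ran between -0.45 for Wars2 minus Wars and 0.44 for Pars2 minus Eprs. Fars2 was set against Farsa only, and not against Farsb, the other subunit of the cytosolic enzyme, which had a fitted ratio of 0.44. Only Ears2 and Pars2, both set against Eprs, were above their partner on all 4 arrays. For Pars2 the differences were 0.36, 0.78, 0.62 and 0.02 on arrays 1 to 4, and for Ears2 0.40, 0.67, 0.30 and 0.06. The mitochondrial gene was below its partner on all 4 arrays in 0 pairs. For tryptophan, Wars2 minus Wars was -0.70, -0.75, -0.43 and 0.07.

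**Figure D3:**
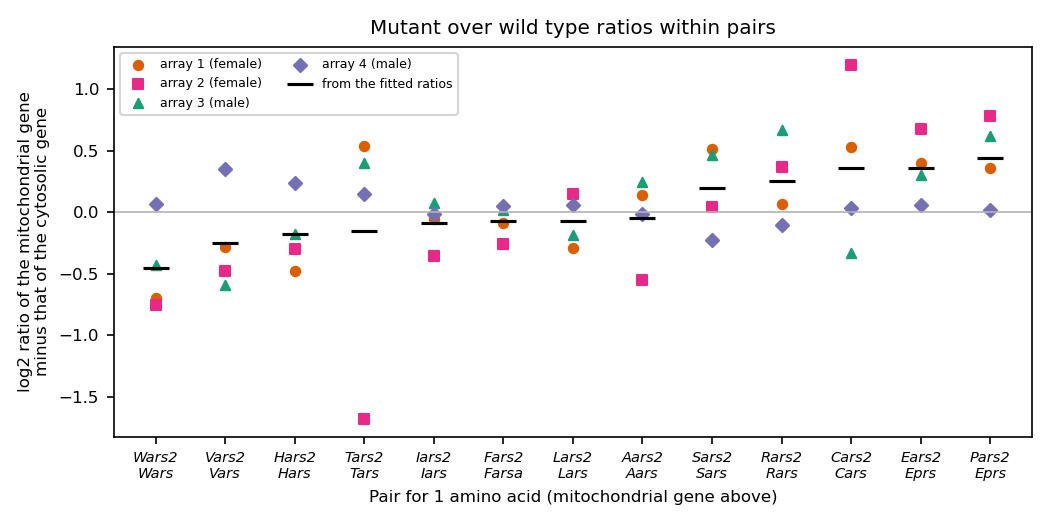
Difference of the log2 ratio (mutant over wild type) of the mitochondrial gene minus that of the cytosolic gene (y axis) for the 13 measured pairs (x axis), with 1 symbol per array and a black line for the fitted ratios. The pairs run between -0.45 and 0.44, and only the 2 pairs with Eprs lie above 0 on every array.

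The level of each set was also followed over the livers, as the median over its genes after each gene was centred on its mean of 8 livers. For the cytosolic set this median was 0.030, 0.21, -0.057 and 0.036 in mutants 1 to 4, against -0.079, -0.078, -0.066 and -0.074 in wild types 1 to 4. All 4 mutants lay above all 4 wild types, with mutant male 3 by a margin smaller than 0.01. For the mitochondrial set it was 0.088, 0.20, -0.078 and -0.078 in mutants 1 to 4, against 0.073, 0.068, -0.16 and -0.18 in wild types 1 to 4. Here the livers separated by sex before genotype, with all 4 males below all 4 females. How often other sets of genes separate the livers by genotype or by sex was not tested. The same median over all genes lay between -0.026 and 0.0087.

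**Figure D4:**
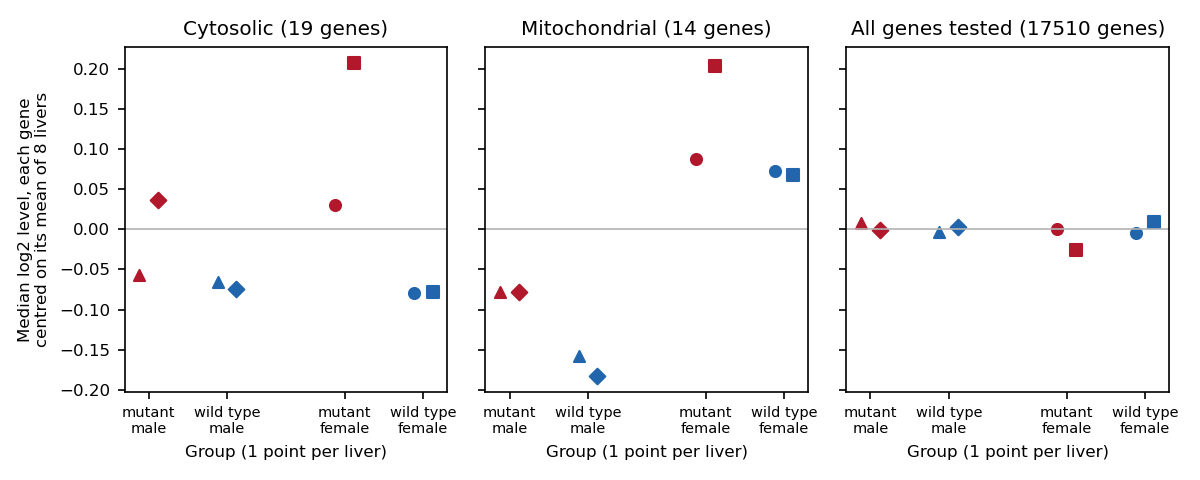
Median over the genes of a set of the log2 level, each gene centred on its mean of 8 livers (y axis), for the cytosolic set, the mitochondrial set and all genes tested, with 1 point per liver, mutants in red and wild types in blue. The mitochondrial points are lower in males (-0.18 to -0.078) than in females (0.068 to 0.20), and the points of all genes lie between -0.026 and 0.0087.

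Males and females were compared next, although they were never on the same array, so that sex cannot be told apart from the pair of arrays. The single-channel fit of limma called 37 of all genes (0.211%) and 0 of the 33 synthetases. At an unadjusted p under 0.05 it had 4 mitochondrial genes (Cars2, Ears2, Iars2 and Yars2) and 1 cytosolic gene (Farsb) lower in males (7.81% of all genes), and 2 cytosolic genes (Dars and Sars) higher (8.61%). On simulated signals this fit gave an unadjusted p under 0.05 to only 0.168% of unchanged genes. Those signals had the same spread for every gene, so this share need not hold for the real arrays. Lower in males were 10 of 14 mitochondrial and 10 of 19 cytosolic genes, against 49.6% of all genes. The median log2 ratio of male over female was -0.23 in the mitochondrial set, -0.05 in the cytosolic set and 0.003 over all genes. All 4 males lay below all 4 females in 6 mitochondrial genes (Ears2, Hars2, Iars2, Lars2, Tars2 and Yars2) and in 2 cytosolic genes (Eprs and Lars), a pattern seen in 12% of all genes. All 4 males lay above all 4 females in Sars and Fars2, as in 12.6% of all genes.

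Yars2 read 8.12, 8.33, 8.44 and 8.13 in males (mutants 3 and 4, wild types 3 and 4), against 9.27, 9.56, 9.11 and 8.51 in females (mutants 1 and 2, wild types 1 and 2). Its means were 8.26 ± 0.16 in males and 9.11 ± 0.44 in females (SD, n = 4 each), a log2 ratio of -0.86 ± 0.18 (SE, adjusted p = 0.132 in limma). Wild-type female 2 was the lowest female and lay close to the highest male. Ears2 averaged 8.03 ± 0.16 in males and 8.73 ± 0.22 in females (SD, n = 4 each), a log2 ratio of -0.70 ± 0.18 (SE, adjusted p = 0.174 in limma). The highest male, mutant 3 at 8.27, was below the lowest females, the wild types at 8.54.

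Sars, the cytosolic seryl-tRNA synthetase, went the other way. It read 12.27, 12.54, 12.37 and 12.50 in males (mutants 3 and 4, wild types 3 and 4), against 11.56, 11.79, 11.81 and 11.99 in females (mutants 1 and 2, wild types 1 and 2). The log2 ratio of male over female was 0.63 ± 0.16 (SE, 1.55-fold, adjusted p = 0.168 in limma), with no overlap between the sexes. Its mitochondrial counterpart Sars2 had a ratio of 0.18 ± 0.14. Iars2 averaged 8.34 ± 0.12 in males and 8.73 ± 0.09 in females (SD, n = 4 each), a log2 ratio of -0.39 ± 0.14 (SE, adjusted p = 0.273 in limma).

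An alternative chosen after seeing the data tested the mean of each array, 2 male arrays against 2 female arrays. On the same simulated signals, with 1 spread for every gene, it gave an unadjusted p under 0.05 to 4.84% of unchanged genes. It called 2073 of all genes (11.8%; 6% lower and 5.83% higher in males) and 4 synthetases. Yars2 (-0.86 ± 0.12, adjusted p = 0.0194), Ears2 (-0.70 ± 0.12, adjusted p = 0.0280) and Farsb (-0.69 ± 0.14, adjusted p = 0.0350) were lower in males and Sars (0.63 ± 0.14, adjusted p = 0.0439) was higher by this limma fit. With each array left out in turn, Ears2 and Sars passed in 0 of 4 fits and Yars2 and Farsb in 1 of 4, where adjusted p-values ran between 0.0391 and 0.174 over the 4 genes. Of the 33 synthetases 4 is a share close to that of all genes.

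**Figure D5:**
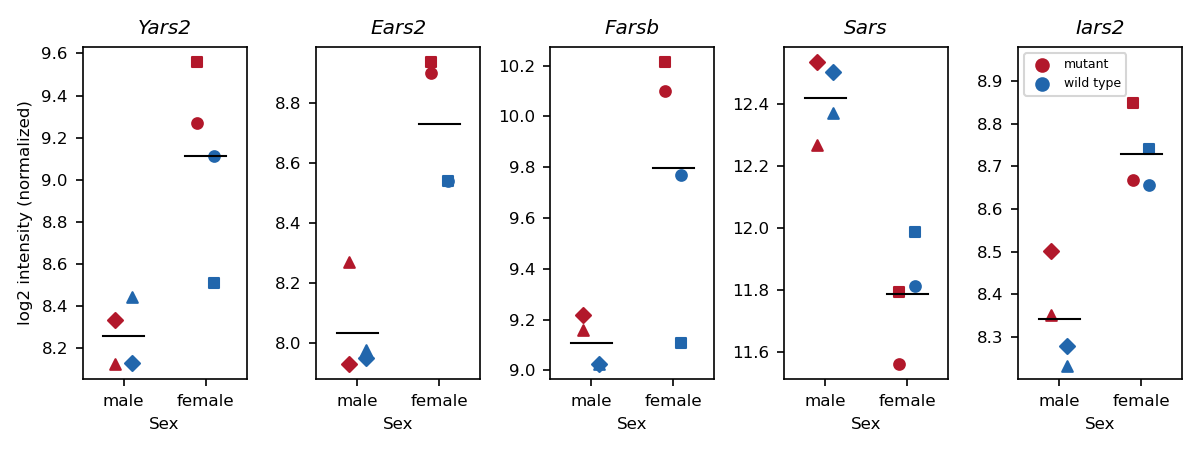
Normalized log2 intensity (y axis, its own range in each panel, not starting at 0) in males and females (x axis) for Yars2, Ears2, Farsb, Sars and Iars2, with mutants in red, wild types in blue, symbols for the arrays and a line for the mean of 4 livers. Males lie below females in Yars2, Ears2 and Iars2 and above them in Sars, and the low female of Farsb and Yars2 is wild type 2.

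The last comparison asked whether the genotype ratio differed between males and females. No gene passed (0 of 17531, 0%, with 1025 or 5.85% at an unadjusted p under 0.05), and this fit has 1 residual degree of freedom. Yars2 was the only synthetase with an unadjusted p under 0.05. Its ratio of mutant over wild type was -0.06 in males and 0.60 in females, a difference of -0.66 ± 0.23 (SE, unadjusted p = 0.0366, adjusted p = 0.823 in limma). The female value is the mean of 0.15 on array 1 and 1.05 on array 2, so most of it comes from array 2. Cars had ratios of 0.06 in males and -0.48 in females, a difference of 0.55 ± 0.21, and Dars of 0.06 and -0.44, a difference of 0.50 ± 0.22 (SE, adjusted p = 0.823 in limma for each). For Cars both female arrays gave a ratio below both male arrays. Over the 33 synthetases the adjusted p-values ran between 0.823 and 0.996.

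Other parts of the charging and elongation machinery were read from lists of genes. Of 8 synthetase relatives outside the 36 genes, 7 had a ratio of mutant over wild type above 0. Their ratios ran between -0.35 and 0.14, with a median of 0.10 and none past the test. Among them Tarsl2, a threonyl-tRNA synthetase-like gene, had a ratio of 0.14 ± 0.14 (SE, n = 4 arrays). The 5 mitochondrial elongation factors had a median of 0.23 and 3 ratios above 0, with Tufm at 0.28 ± 0.16, Gfm1 at 0.28 ± 0.15 and Tsfm at 0.23 ± 0.12 (SE, n = 4 arrays). Their array medians were 0.15, 0.70, 0.02 and 0.02. The 5 cytosolic elongation factors had a median of -0.10 and 2 ratios above 0, with Eef1g at 0.39 ± 0.14, Eef1d at -0.24 ± 0.14 and Eef1a1 at -0.14 ± 0.11.

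Lists of genes of other cell types and of cell states, also chosen with earlier results known, were read as well. Of their genes 0 passed the test for genotype. At an unadjusted p under 0.05 the limma fit had 12 Kupffer cell, 14 cell cycle, 7 interferon response and 4 neutrophil genes higher in mutants. At that p 4.73% of all genes were higher in mutants. Of 13 measured Kupffer cell markers 12 had a positive ratio, with summed intensities of 51805 to 75605 in mutants and 32612 to 59346 in wild types. Of 16 measured cell cycle genes 15 had a positive ratio, with sums of 6951 to 18164 in mutants and 3981 to 5626 in wild types that did not overlap. In 7 of these 16 genes all mutants lay above all wild types, against 1.34% of all genes. Only 9 of the 16 were well above background in all 8 livers. Tpx2 was so in 4 mutants and 0 wild types, and Aurka and Ccnb1 in 4 mutants and 1 wild type. Such genes passed the background filter mainly through the mutants, where they read high, so the cell cycle counts are partly set by that filter. For the 25 measured interferon response genes the sums were 41982 to 168146 in mutants and 35831 to 55448 in wild types. Neutrophil markers gave 5 of 6 positive ratios with a median of 0.53, and array medians of -0.14, 1.04, 0.70 and 0.45. Their sums did not go that way, with 30900 to 49175 in mutants and 36945 to 77213 in wild types. Positive ratios were fewer in hepatocyte (6 of 12), lymphocyte (4 of 7), endothelial (4 of 11) and cholangiocyte (2 of 4) markers, and the stellate and matrix genes gave 7 of 10 with a median of 0.06. Of the 6 measured red cell genes 5 had a ratio of mutant over wild type below 0. The median was -0.12, with array medians of 0.40, -0.38, 0.01 and -0.14. The red cell genes also went with sex, with sums of 293962 to 554869 in males and 67277 to 239297 in females. In 5 of these 6 genes all males lay above all females, as in 12.6% of all genes. The part of these lists in the ratios of the synthetases was not tested. None of the synthetase genes (0 of 36) lies on chromosome 5, which carries Pus1.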

How the data were processed

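Liver RNA of 8 mice was measured on 4 2-colour Agilent arrays of 1 slide, read in 1 scan; 200 ng of RNA extracted with the mirVana PARIS kit was labelled per liver, per the labels' protocols. The deposited array files were made with Agilent Feature Extraction 10.7.3.1, per the submitters' processing notes. Per the file headers they give a linear intensity (median signal and local background) in each channel of a spot, and, as values of other kinds, marks of 0 or 1 such as well above background. The authors' deposited matrix of log2 values has unsettled scale and centring, with column medians of -0.00537, -0.00754, 0.00951 and 0.0099 in mutants 1 to 4 and of -0.0135, -0.00392, -0.000942 and 0.015 in wild types 1 to 4, and served only as an alternative. A further 68 columns with values of the livers were left out. No livers had identical signals (0 pairs).

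Median signals were used, background correction was by normexp with an offset of 50, and loess was run within arrays, in limma 3.58.1 under R 4.3.3 (data.table, version 1.17.8). Probes were kept if well above background in 4 or more livers (22031), and a gene took its probe with the highest mean intensity. RefSeq accessions named 27656 probes. Ratios were fitted with coefficients for genotype and dye, and with 1 per sex for the sex difference. The sexes were set against each other by a separate-channel fit on Aquantile-normalized signals (within-spot correlation 0.794), which drops genes missing a spot, so that 17510 remain. Adjustment was over all genes, with 0.05 as the threshold. The replicate number names the shared array, so the array pairs the livers in the fit; same-numbered livers deviated from their genotype means with correlations of 0.685, 0.176, 0.56 and 0.646.

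On simulated arrays the genotype fit called 13.4% of genes changed 1.5-fold, 77.6% of those changed 2-fold and 0.0692% of unchanged genes among 17530. The simulated noise of a gene had the same spread on every array, without the wider spread of array 2. These shares therefore need not hold for the real arrays. There the fit called 0 of 17531 genes, so Pus1 itself did not pass either. Plots were made in matplotlib 3.10.9 (Python 3.11.15).

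The genes, the lists and the tests were chosen with earlier results of these data known. Values in every liver are given for the 5 cytosolic and 5 mitochondrial genes with the smallest genotype p, the 4 with the smallest sex p, the 3 with the smallest p for the sex difference, Gars and Kars, genes past the threshold in any comparison, and genes whose probes differ in sign; Tars was added after its values were seen. Alternatives covered background correction, normalization, the dim filter, the choice of probe, the dye coefficient, the array block and each array left out. Sequences came from RefSeq tables of GRCm38.p6.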

Additional observations from a re-analysis of the deposited data

Results flagged for a closer look

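A single liver lay far from the others of its genotype, by Dixon's test at the 95% critical value, in 4 of 66 groups of 4 livers, where chance alone gives about 1 group in 20. Farsb read 9.77 in wild type 1, against 9.03 to 9.11 in the other wild types. Iars read 10.18 in the same liver, against 9.59 to 9.64. Dars read 9.23 there, against 9.63 to 9.69. Rars, which is near background, read 7.54 in wild type 2, against 6.93 to 6.99. Wild types 1 and 2 are the females, and wild type 1 gave 3 of the 4 values.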

How the results depend on the processing

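Arrays 1 and 2 hold the females and arrays 3 and 4 the males, so sex and array pair cannot be told apart, 4 arrays limit every test, and the causes of the shifts given here were not tested. For genotype, median centring, no filter on dim probes and no dye coefficient each called 1 gene against 0, no replicate block 2 and a random array block 3, with 0 synthetases in each; with each array left out the calls ran between 0 and 1513 genes and between 0 and 2 synthetases, the highest without array 4. Leaving the array block out or making it random changed no call for a synthetase by genotype. The mitochondrial median of 0.072 became 0.105 with processed signals, 0.144 with median centring, which shifts all genes alike on an array, and 0.111 with the series table, and lay between 0.050 and 0.092 with each array left out; the cytosolic median of 0.114 became 0.190 with median centring and lay between 0.044, without array 2, and 0.130. By sex, 6 genes were called among those above background in all 8 livers and 3245 genes with 7 synthetases under no replicate block; with arrays left out 238 to 2513 genes and 0 to 7 synthetases were called, in a fit with additive terms. The array-mean fit added after seeing the data called 2073 genes and 4 synthetases, 2269 and 4 without background correction, 2073 and 4 with median centring, 1857 and 2 with processed signals, 1830 and 2 with the series table, and 208, 1245, 102 and 77 genes with 0 to 4 synthetases without arrays 1, 2, 3 and 4. Vars2 turned positive, against -0.03, with processed signals (0.068), the series table (0.088), the mean of its probes (0.051) and its second probe (0.13), and lay between -0.15 and 0.086 with arrays left out, the highest without array 2. Cars2, at 0.15, lay between -0.029 and 0.32 with arrays left out, negative without array 2, and at -0.14 with its second probe; Iars2 lay at -0.0083 with its second probe. The fitted genotype ratio also changed sign without array 2 in Fars2, Qars and Tars, without array 1 in Farsa, Hars, Qars and Rars, and without array 4 in Farsa and Rars. The sex difference of the genotype ratio with an array left out was not run, since no residual degrees of freedom remain.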
